A study of Mus musculus with 4 samples.

Results

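Regulatory T cells were taken from single-cell RNA profiles of CD45+ immune cells of the mouse liver. A cell was a regulatory T cell (Treg) if it had at least 1 UMI (a counted RNA molecule) of Foxp3 and at least 1 of Cd3d, Cd3e or Cd3g, at most 1 UMI of Mki67 and Top2a together, and none of Cd8a, Cd8b1, Cd79a or C1qa. The members were thus chosen by their measured UMIs of these genes, which are not read as results here. The rule was met by 84 of the 25161 cells that had at least 200 detected genes and at most 10% mitochondrial UMIs. The study compared 2 libraries of mice that exercised before surgery (Ex) with 2 libraries of sedentary mice (Sed). All groups were male mice, labelled 8-week, that carried MC38 tumours, a mouse colon carcinoma line. Livers were taken 3 weeks after the tumour injection, hepatocytes were spun out, and CD45+ cells were captured on beads at a stated purity above 90%. The labels do not say whether a library came from 1 mouse or from pooled mice, and no group without a tumour was analysed here. P-values therefore measure only the spread between these libraries.

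Treg restrain immune responses. Foxp3 (chromosome X, 7573644 to 7595245, plus strand, GRCm38) encodes the transcription factor that fixes their identity, Ctla4 takes the co-stimulatory ligands from antigen-presenting cells, and Il2ra gives them a high-affinity receptor for IL-2, a growth factor they do not make themselves. Treg that have met antigen in tissue lose the homing programme of lymphoid organs, of which Tcf7, Lef1 and Ccr7 are parts, and gain TNF receptors and repair factors such as amphiregulin. In tumours they limit CD8 T cells.

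The Ex libraries held 30 and 25 Treg, and the Sed libraries held 16 and 13. The cells were unequally deep. The median Treg had 4957.5 and 5857 UMIs in Ex 1 and Ex 2, against 2535 and 1619 UMIs in Sed 1 and Sed 2, and single Treg ranged from 999 to 14107 UMIs. Summed over its Treg, a library gave 162927 and 141024 UMIs in Ex, against 55323 and 29855 UMIs in Sed. The medians of all kept cells were closer together, at 3929 and 3818 UMIs in Ex and 3482 and 3567 UMIs in Sed. No barcode of a Treg was shared with another library. Each Sed value below rests on at most 16 cells.

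The label was checked against markers other than Foxp3. Ctla4 was found in 72 of the 84 cells, Ikzf2, which encodes the transcription factor Helios, in 72, and Tnfrsf4, the receptor OX40, in 59. Together, 83 cells had at least 1 of these 3 genes and 49 had all 3. A UMI of Cd4 was present in 49 cells. The markers go with the label. Among cells that met a CD4 T cell gate with Foxp3 ignored, 47 of 301 had a Foxp3 UMI (15.6%, exact 95% interval 11.7 to 20.2%, median depth 3794 UMIs). Among CD8 T cells, which should mostly lack the gene, 11 of 1358 had one (0.81%, 0.405 to 1.44%, median depth 4733 UMIs). B cells had it in 0 of 4700, which allows a share of up to 0.0638% with the limit set at 3 cells (exact 95% upper limit 0.0785%, median depth 2302 UMIs). Neutrophils had it in 0 of 4769, which allows up to 0.0629% (0.0773%, median depth 2728 UMIs). Cells with a C1qa UMI and no Cd3 or Cd79a UMI had it in 2 of 4109 (0.0487%, 0.0059 to 0.176%, median depth 4658 UMIs). These intervals and limits cover counting error only.

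By library, Tnfrsf18 was in 27 of 30 and 19 of 25 Treg of Ex, against 10 of 16 and 10 of 13 of Sed. Icos was found in 20 and 22 of these Treg of Ex 1 and Ex 2, against 8 and 6 of Sed 1 and Sed 2. Il10 was found in 4 and 4 Treg of Ex, against 1 and 0 of Sed. Il1rl1, a receptor of tissue Treg, was found in 2 and 5, against 0 and 0. The chemokine receptor Ccr8 was seen in 2 cells, while the lineage factor Gata3 was seen in 34 and Tbx21 in 16. A missing UMI in a cell of this depth is no evidence that the gene is silent, and the shallower Sed cells show fewer genes.

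**Figure D1:**
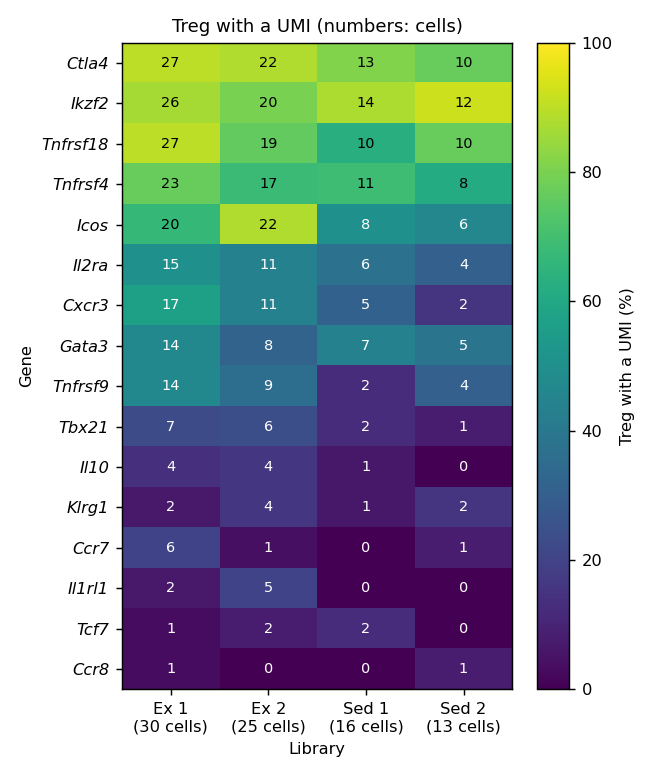
Percent of the Treg of each library (columns, Ex left of Sed) with a UMI of each named gene (rows), as colour from 0 to 100%, with the number of cells printed. Ctla4 and Ikzf2 top the map with 72 cells each, and Ccr8, at the foot, has 2.

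The rule leaves cells near its edges. Of the members, 44 rested on 1 Foxp3 UMI, 19 had 2, 11 had 3 and the highest had 10. Another 22 cells met every criterion except that they had 2 or more Mki67 and Top2a UMIs, the marks of dividing cells, and were left out; 4 of these had exactly 2, while 14 members had 1. On the other side, 29 of 254 conventional CD4 T cells, which had a Cd4 UMI and no Foxp3 UMI, had both Ctla4 and Ikzf2.

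Promoters were looked up for 12 genes that were higher in Treg than in conventional CD4 T cells, the largest rises among those with at least 50 CPM and a higher level in every library. The 3 shown are Prdm1 and Sdcbp2, picked because they alone of the looked-up genes held the forkhead word below, and Ctla4, which held neither of the words marked below. They are given as the 250 bases upstream of the first listed start, read on the gene's strand from RefSeq, GRCm38.p6. Prdm1, which encodes the transcriptional repressor Blimp-1, has its window at chr10:44458749-44458998 (minus strand), Sdcbp2, which encodes syntenin-2, at chr2:151572373-151572622 (plus strand) and Ctla4 at chr1:60908775-60909024 (plus strand). Capitals mark the forkhead word GTAAACA, the letters that FOX family factors bind, and the AP-1 word TGANTCA, either of them on either strand.
Prdm1: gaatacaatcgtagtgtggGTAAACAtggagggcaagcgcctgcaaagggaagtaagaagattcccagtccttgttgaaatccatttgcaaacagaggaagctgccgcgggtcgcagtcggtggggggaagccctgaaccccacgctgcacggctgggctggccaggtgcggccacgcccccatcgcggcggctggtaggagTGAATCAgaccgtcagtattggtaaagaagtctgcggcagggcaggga
Sdcbp2: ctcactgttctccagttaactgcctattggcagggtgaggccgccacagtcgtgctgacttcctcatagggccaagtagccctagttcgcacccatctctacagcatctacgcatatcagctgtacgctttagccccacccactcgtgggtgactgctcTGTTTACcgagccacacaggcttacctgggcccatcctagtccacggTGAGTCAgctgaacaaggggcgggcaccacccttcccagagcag
Ctla4: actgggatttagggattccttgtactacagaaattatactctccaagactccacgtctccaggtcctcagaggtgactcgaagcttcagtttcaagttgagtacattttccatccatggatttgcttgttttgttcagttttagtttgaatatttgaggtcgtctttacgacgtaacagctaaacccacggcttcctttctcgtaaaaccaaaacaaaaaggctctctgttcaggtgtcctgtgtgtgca
Of the 12 genes 11, all but Ikzf2, matched 14 promoters, some of which overlap because a gene has close starts. The forkhead word was in 2 of those 14 promoters and the AP-1 word in 6. The overlapping Glrx promoters hold the same AP-1 match, which is counted in each. The NFAT word GGAAA, also searched for and not marked above, was in 8 of the 14. Over 32851 promoters of the same length the forkhead word was in 3.17%, the AP-1 word in 6.75% and the NFAT word in 55.6%. A match describes letters in this window and is neither a site nor a cause. Sdcbp2 had 117, 163, 145 and 100 CPM in Treg of Ex 1, Ex 2, Sed 1 and Sed 2, against 32.6, 43.9, 34.5 and 23.5 CPM in conventional CD4 T cells (log2 1.72, edgeR adjusted p = 0.00828, and 0.327 without Ex 2).

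Treg were a larger share of the kept CD45+ cells in the 2 Ex libraries than in the 2 Sed libraries. They made up 0.495% of the kept cells of Ex 1 (exact 95% interval 0.335 to 0.706%) and 0.590% of those of Ex 2 (0.382 to 0.869%), against 0.220% in Sed 1 (0.126 to 0.358%) and 0.171% in Sed 2 (0.0911 to 0.292%). Both Ex libraries lay above both Sed libraries, with means of 0.542 ± 0.0665% in Ex and 0.196 ± 0.0349% in Sed (SD, n = 2 each), a ratio of 2.77. The two-sided exact permutation test over libraries gave p = 0.333, which is the smallest p that 2 against 2 allows. A cell needs a captured Foxp3 molecule to be counted, and the Sed Treg were shallower; with every cell thinned to 2000 UMIs the log2 ratio was 1.97, against 1.47 unthinned. The thinning left out cells of fewer UMIs, among them 2 and 4 Treg of Ex and 6 and 9 Treg of Sed.

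Against other T cells the difference was smaller. Of cells with a Cd3 UMI and no Cd79a or C1qa, Treg were 2.54% and 3.72% in Ex and 1.87% and 1.39% in Sed, with means of 3.13 ± 0.837% and 1.63 ± 0.343% (SD, n = 2 each; 1.92-fold, exact permutation p = 0.333). Of Treg plus conventional CD4 T cells, they were 19.5% and 28.7% in Ex and 27.1% and 34.2% in Sed. These ranges overlapped (24.1 ± 6.54% in Ex and 30.7 ± 5.01% in Sed, exact permutation p = 0.667), and the sign of the difference turned in the thinned cells (log2 ratio 0.15, against -0.35 unthinned).

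**Figure D2:**
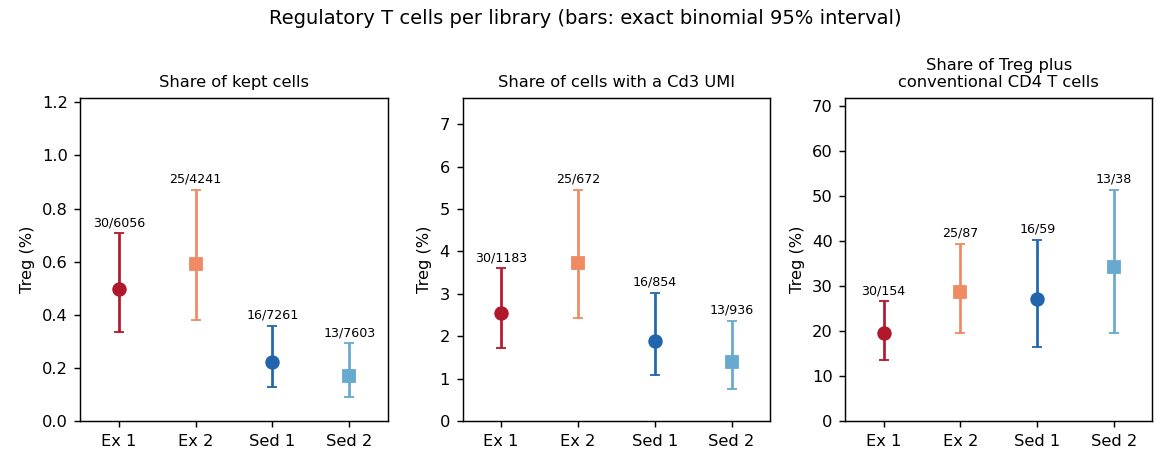
Treg as a percent of kept cells, of cells with a Cd3 UMI and of Treg plus conventional CD4 T cells (vertical axes, percent), 1 point per library with its exact 95% interval, Ex left of Sed. Both Ex points (0.495% and 0.590%) lie above both Sed points (0.220% and 0.171%) among kept cells, and the groups overlap in the last panel.

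In all, 4 Treg carried much RNA of myeloid cells. They had more than 2 UMIs of Lyz2, the lysozyme of macrophages and neutrophils, or of Tyrobp and Fcer1g together, and were found after the data had been seen. In Ex 2 a cell with 12130 UMIs had 132 of Lyz2, and a cell with 6042 UMIs had 6. In Sed 1 a cell with 14107 UMIs had 179 of Lyz2 and 96 of S100a8, a neutrophil alarmin gene. In Sed 2 a cell with 8905 UMIs had 116 of Lyz2. The 84 Treg had 441 Lyz2 UMIs in all and 8 without the 4 cells, and 1 of the 4, in Ex 2, was marked by the doublet caller. Without them the sums were 162927 and 122852 UMIs in Ex, against 41216 and 20950 UMIs in Sed. The counts of calls below are therefore given with and without them.

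**Figure D3:**
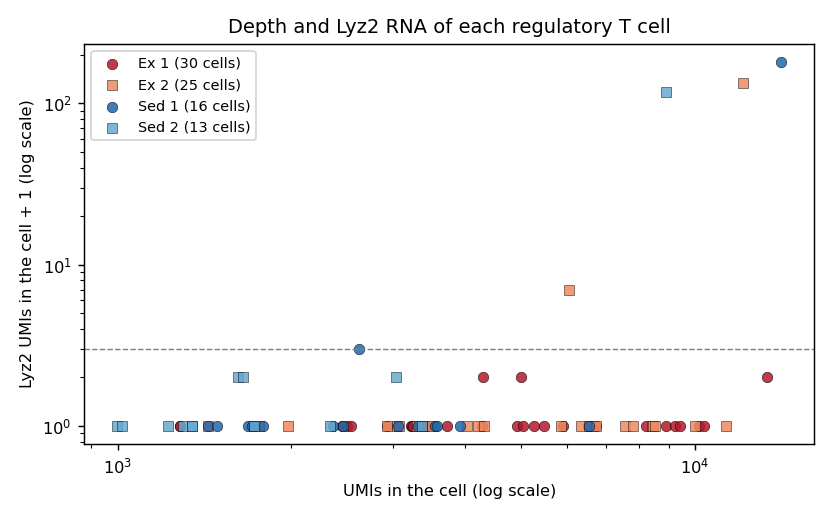
UMIs of each Treg (horizontal axis, log scale) against its Lyz2 UMIs plus 1 (vertical axis, log scale), coloured by library. A dashed line marks 2 Lyz2 UMIs plus 1, above which 4 cells lie, from Ex 2, Sed 1 and Sed 2, with 6 to 179 Lyz2 UMIs.

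Set against conventional CD4 T cells of the same libraries, Treg had higher levels of their own receptor and transcription factor genes and lower levels of the genes of resting, recirculating T cells. Of 3033 genes tested with edgeR's quasi-likelihood test (library as a block, Benjamini-Hochberg adjustment over all genes), 37 were higher in Treg (1.22%) and 31 lower (1.02%) at an adjusted p under 0.05. One of the 37 was Foxp3, which the rule used. DESeq2's Wald test called 21 higher and 57 lower, of which 18 were among the 68 calls of edgeR; the other 50 of edgeR's calls got no adjusted p from DESeq2, among them Il2ra, Tnfrsf9, Tnfrsf1b, Cd27, Prdm1, Areg, Glrx, Pglyrp1, Tcf7, Lef1, Satb1, Bach2, Igfbp4 and Dapl1. Of the 24 genes in a list of Treg identity genes, 15 were tested, 10 were higher and none lower, with a median log2 difference of 1.90 against -0.01 over all genes tested. The list was drawn up with results of these data known.

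Ikzf2 had 1215, 1163, 886 and 1072 CPM (UMIs of the gene per 1000000 UMIs of the class in that library) in Treg of Ex 1, Ex 2, Sed 1 and Sed 2, against 158, 104, 115 and 317 CPM in conventional CD4 T cells (log2 difference 2.62, SE 0.27, adjusted p = 9.81e-05). Ctla4 had 1037, 929, 578 and 603 CPM in Treg, against 230, 129, 46 and 247 CPM (log2 2.26, SE 0.29, adjusted p = 0.000438). All 4 Treg values of both genes exceeded every conventional CD4 value. Il2ra, the high-affinity chain of the IL-2 receptor, had 147, 284, 253 and 268 CPM in Treg, against 45.3, 22, 34.5 and 47 CPM (log2 2.39, adjusted p = 0.0014). Its Treg values too lay above all the others. Il2rb, a signalling chain of the same receptor, was higher by a log2 of 1.04 (adjusted p = 0.0215).

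Genes of the TNF receptor family, which pass co-stimulatory signals to Treg, were higher in 5 of 9 tested members, against 1.22% of all tested genes. Tnfrsf4 had 822, 1163, 434 and 1541 CPM in Treg, against 279, 185, 86.2 and 317 CPM in conventional CD4 T cells (log2 1.98, SE 0.23, adjusted p = 0.000328). Tnfrsf18, which encodes GITR, had 718, 518, 343 and 703 CPM in Treg, against 216, 97.2, 149 and 282 CPM (log2 1.52, SE 0.25, adjusted p = 0.00418). In Tnfrsf9, which encodes 4-1BB, the Treg of Sed 1 stood low with 36.2 CPM, below the 235 CPM of the conventional CD4 T cells of Sed 2, while each library's own Treg still exceeded its conventional cells (log2 1.99, adjusted p = 0.0129). Tnfrsf1b, the second TNF receptor (log2 1.92), and Cd27 (log2 1.17) also rose. The co-stimulator Icos had 350, 659, 217 and 402 CPM in Treg, against 188, 210, 144 and 247 CPM, and did not pass (log2 0.86, adjusted p = 0.0953).

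Genes of tissue and effector Treg rose in 7 of 24 tested members, against 1.22% of all tested genes (median log2 difference 0.69). Prdm1 had 153, 56.7, 72.3 and 167 CPM in Treg, against 34.4, 12.5, 5.75 and 35.2 CPM (log2 2.13, SE 0.45, adjusted p = 0.0215). Areg, the gene of amphiregulin, a growth factor for tissue repair, had 55.2, 383, 0 and 301 CPM in Treg, against 12.7, 22, 5.75 and 11.7 CPM (log2 3.20, SE 0.48, adjusted p = 0.00207). The Treg of Sed 1 had no Areg UMI, so the difference was carried by the 3 other libraries. Glrx, a glutaredoxin (log2 2.09), Pglyrp1, a peptidoglycan recognition protein (log2 2.20), and Lgals1, the galectin-1 gene (log2 1.01), also rose. Klrg1, a receptor of terminally differentiated cells, did not pass (log2 2.33, adjusted p = 0.295), and neither did Gata3 (log2 0.64) or Cxcr3 (log2 0.42). Il10, Il1rl1, Ccr8 and Tbx21 were too low to be tested.

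Genes of resting T cells were lower in 6 of 15 tested members, against 1.02% of all tested genes, and higher in none (median log2 difference -1.95). Tcf7, which encodes TCF-1, had 6.14, 21.3, 54.2 and 0 CPM in Treg, against 221, 414, 356 and 164 CPM in conventional CD4 T cells (log2 -4.20, SE 0.38, adjusted p = 3.09e-05). Lef1 (log2 -2.03), its partner, Satb1 (log2 -2.26), a chromatin organiser, and Bach2 (3 UMIs in all Treg and 76 in conventional CD4 T cells, log2 -3.24), a repressor that keeps T cells quiescent, fell as well. Igfbp4 had 0 UMIs in Treg and 159 in conventional CD4 T cells, so it was at least 18.3-fold lower, with the limit set at 3 UMIs over all Treg. Dapl1 likewise had 0 and 85 UMIs and was at least 9.76-fold lower. Ccr7, a homing receptor of the same programme, did not pass (log2 difference -1.25, adjusted p = 0.213). Ifng, the cytokine of type 1 T cells, fell by 1.75 on the log2 scale, and Itgb1 by 1.39.

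**Figure D4:**
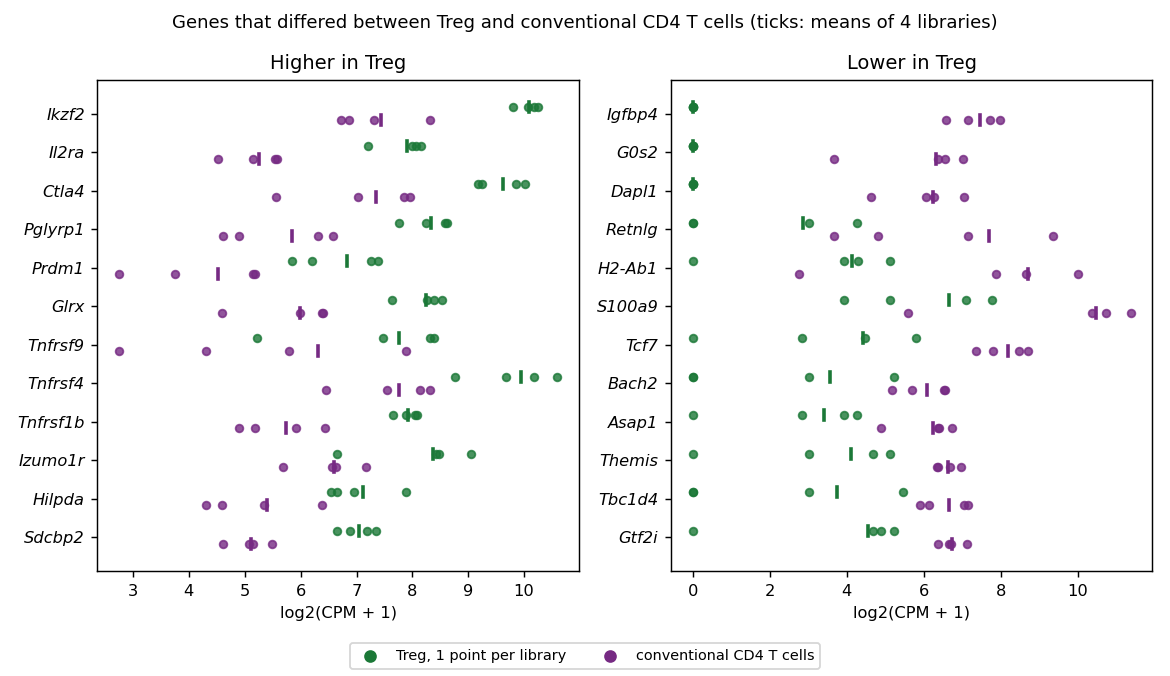
The largest rises and falls in Treg against conventional CD4 T cells among called genes with at least 50 CPM and the same direction in every library, as log2(CPM + 1) on the horizontal axis, with 1 point per library, a tick at each mean, green for Treg and purple for conventional CD4 T cells. Ikzf2, Il2ra and Ctla4 separate the classes fully, and Igfbp4 and Dapl1 sit at 0 in all 4 Treg sums.

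Few genes of the other lists passed. Of the interferon-stimulated genes 36 were tested and 2 rose, Ifi27l2a (log2 1.29, adjusted p = 0.0122) and Gbp7, a guanylate-binding protein gene (0.95, adjusted p = 0.0483), with a median of 0.39. Of the IL-2 and STAT5 pathway 11 were tested and 2 rose, the receptor chains above, with a median of 0.34. None of the 16 tested genes of T cell receptor activation, the 8 of TGF-beta signalling, the 17 of MHC class I, the 14 of glycolysis, the 24 of early response and heat shock or the 7 of the cell cycle passed, and their medians lay between -0.32 and 0.46. Both gates left out cells with 2 or more Mki67 and Top2a UMIs, so the cell cycle genes cannot show whether division differed. Of 18 tested homing genes 1 fell, Itgb1, of 6 tested helper lineage genes 1 fell, Ifng, and of 10 tested suppression genes 1 rose, Ctla4. Without cells rich in myeloid RNA, 2.66% of all tested genes rose and 2.51% fell. Of 32 interferon-stimulated genes 5 then rose. Tgfbr2, a TGF-beta receptor gene, and Fosb, an early response gene, fell (log2 -1.24 and -2.03), while H2afz, a histone gene of the cell cycle list, rose (0.90). Genes of resting T cells then fell in 11 of 16. Of the IL-2 and STAT5 pathway 3 of 11 tested genes rose in that setting and 2 fell, and of the TNF family 5 of 8 rose and 1 fell. Of the effector and tissue genes 8 of 23 rose and 1 fell, and of 18 homing genes 2 fell.

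Some differences moved with RNA of other cells. Retnlg and S100a9, neutrophil genes, had log2 differences of -5.03 and -4.35, and summed neutrophil markers stood at 209, 70.9, 3362 and 1742 CPM in Treg, against 6332, 3698, 3714 and 352 CPM in conventional CD4 T cells. Without cells rich in myeloid RNA the sums were 209, 57, 267 and 0 CPM in Treg, against 98.8, 100, 314 and 200 CPM, and S100a9 turned to a log2 difference of 0.57. In that setting 72 genes were higher and 68 lower of 2710 tested (2.66% and 2.51%), with 60 of the 68 calls shared. Ikzf2 then differed by 2.54, Ctla4 by 2.22, Il2ra by 2.06 and Tcf7 by -4.13 on the log2 scale. Summed macrophage markers were at 73.7, 1205, 3615 and 4488 CPM in Treg, against 2108, 1192, 1501 and 693 CPM in conventional CD4 T cells, with 7 of 16 at 0 in Treg. Without the myeloid-rich cells they were at 73.7, 40.7, 121 and 573 CPM in Treg, against 184, 158, 113 and 138 CPM, with 9 of 16 at 0. Summed B cell markers were higher in Treg in every library, at 473, 709, 434 and 201 CPM, against 201, 320, 184 and 129 CPM, with 5 of 13 at 0 in Treg, among them Ms4a1 and Pax5. The 1 tested B cell gene, Ighm, the heavy chain of IgM, was called higher (log2 0.91, adjusted p = 0.0428). The part of this RNA in the other calls was not tested.

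Without Ex 2, 6 genes were higher and 7 lower, and without Sed 1, 24 were higher and 22 lower. Ikzf2, Ctla4, Tnfrsf4, Glrx, Pglyrp1, Tcf7 and Lef1 passed whichever library was left out. Without Ex 2 the calls were lost for Il2ra (adjusted p = 0.0539), Tnfrsf1b (0.0595), Tnfrsf18 (0.185), Il2rb (0.213), Prdm1 (0.243), Cd27 (0.316), Lgals1 (0.304), Satb1 (0.0615), Ifng (0.435), Itgb1 (0.185) and Ifi27l2a (0.298), and Areg and Bach2 were too low to be tested, as were Prdm1 without Ex 1, Bach2 without Sed 1 and Areg without Sed 2. Without Sed 1 those of Il2rb (0.105), Cd27 (0.0624), Lgals1 (0.0914) and Itgb1 (0.0992) were lost, and without Ex 1 those of Bach2 (0.0731), Itgb1 (0.0589) and Ifng (0.129). The call of Tnfrsf9 was lost without Ex 1 (0.0502), Ex 2 (0.304) or Sed 1 (0.0518), and that of Gbp7 without any of the 4 (0.053 to 0.265).

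The share of cells with a UMI differed in the same way. Averaged over libraries, Ikzf2 was found in 86.6% of Treg and 20.9% of conventional CD4 T cells, Ctla4 in 84% and 25%, Capg, an actin-capping protein gene, in 75.7% and 30.7%, and Pglyrp1 in 54.5% and 12.3%. Tcf7 was found in 5.96% of Treg and 55% of conventional CD4 T cells. These 5 genes were chosen for their difference, and are a description. With cells thinned to 2000 UMIs, which left 63 Treg, 229 conventional CD4 and 1243 CD8 T cells, Ikzf2 was in 76.2% of Treg, 13.5% of conventional CD4 T cells and 8.61% of CD8 T cells, and Tcf7 in 3.17%, 39.7% and 26.0% of the same classes.

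Against CD8 T cells, which the rule keeps apart by Cd8a and Cd8b1, Treg had higher levels of Lrrc32, Itgb8 and Il10 and lower levels of 5 of 8 tested marker genes of CD8 T cells. Of 7998 genes tested with edgeR, 214 were higher in Treg (2.68%) and 339 lower (4.24%), and the median over all genes was a log2 difference of -0.14. These counts include 2 higher (Foxp3 and Cd4) and 2 lower genes (Cd8a and Cd8b1) that the gates used. DESeq2's Wald test called 150 higher and 159 lower, 303 of them among the 553 calls of edgeR. Another 248 of edgeR's calls, Ccr7 among them, had a DESeq2 adjusted p that did not pass, and 2 got none. Without cells rich in myeloid RNA in either class, edgeR called 232 of 7234 genes higher (3.21%) and 403 lower (5.57%), with 503 of the 553 calls shared. Lrrc32 then differed by 5.79, Il10 by 4.45 and Tcf7 by -4.23 on the log2 scale. Of the 24 Treg identity genes, 17 were higher and 0 lower (median 2.45), and 5 of 16 tested suppression genes were higher and 1 lower (median 1.07). Lrrc32, which anchors latent TGF-beta on the surface of Treg, had 98.2, 78, 18.1 and 67 CPM in Treg, against 0, 1.36, 0 and 1.54 CPM in CD8 T cells (log2 6.04, SE 0.76, adjusted p = 5.07e-13). Itgb8, which helps to release that TGF-beta, had 79.8, 42.5, 18.1 and 33.5 CPM in Treg, against 0, 1.36, 0 and 0.514 CPM (log2 5.96, adjusted p = 5.12e-09). Il10, an inhibitory cytokine, had 98.2, 63.8, 18.1 and 0 CPM in Treg, against 0, 1.36, 5.03 and 2.57 CPM (log2 4.37, adjusted p = 1.38e-08), with no UMI in the Treg of Sed 2. The Treg of Sed 1 and Sed 2 held only 1 and 2 UMIs of Lrrc32, 1 and 1 of Itgb8 and 1 and 0 of Il10. Of the 26 Il10 UMIs in Treg, 10 came from 1 cell of Ex 1. Maf, a factor that supports Il10 transcription, had 534, 496, 325 and 301 CPM in Treg, against 24.7, 13.6, 25.2 and 86.4 CPM (log2 3.44).

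Of the 8 tested CD8 T cell markers none was higher and the median log2 difference was -3.79. Gzmk, a granzyme gene, and Eomes, a transcription factor of CD8 T cells, were at 0 in all Treg, against 869 and 459 UMIs in CD8 T cells, so they were at least 15.8-fold and 8.32-fold lower. Klrd1, a receptor of cytotoxic cells, fell by 6.09 on the log2 scale, Gzma, a granzyme gene, by 5.98 and Prf1, which encodes the pore-forming perforin, by 1.96. Gzmb, granzyme B, had 1271, 645, 452 and 67 CPM in Treg, against 243, 90.8, 1060 and 1508 CPM in CD8 T cells, and did not pass (log2 0.10, SE 1.75, adjusted p = 0.99). Treg had the higher level in both Ex libraries and CD8 T cells in both Sed libraries; that difference between the groups was not tested. Genes of resting T cells were lower in 11 of 15 tested members (median -2.22), among them Tcf7 (-4.18) and Ccr7 (-1.58, which did not pass in DESeq2). Of 28 tested effector and tissue genes 16 were higher and 1 lower (median 1.32), of 18 genes of T cell receptor activation 6 were higher and 0 lower (median 0.50), and of 21 homing genes 4 were higher and 3 lower (median -0.25). Of 48 interferon-stimulated genes 3 were higher and 1 lower (median 0.16), and of 17 MHC class I genes 0 passed. Over all genes tested against CD8 T cells, 2.68% were higher and 4.24% lower. Without Ex 1, 94 genes were higher and 198 lower than in CD8 T cells, and without Ex 2, 71 were higher and 206 lower; Lrrc32, Il10, Maf, Prf1 and Tcf7 passed in each case.

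Ex and Sed were then compared within Treg, the question of the series for this class. The 4 Treg sums were compared although only Ex 1 reached the 30 cells per library set for this test. Of 1515 genes tested with edgeR's quasi-likelihood test, 0 were higher in Ex (0%) and 12 lower (0.792%); 166 had an unadjusted p under 0.05, and DESeq2's Wald test called 1 higher and 16 lower. The 12 were Chil3, Lcn2, Cd14, S100a8, Thbs1, Tgfbi, Alox5ap, Fos, Msrb1, Lgals3, Sat1 and Ftl1, most of them genes of macrophages and neutrophils. Chil3, a chitinase-like gene of myeloid cells, had 0 and 0 UMIs in Ex, against 222 and 54 UMIs in Sed, and 0, 0, 1 and 0 UMIs in the same order without the 4 myeloid-rich cells. With those cells left out, edgeR called 0 of 1269 genes (0%) and 96 had an unadjusted p under 0.05. Summed macrophage markers were at 73.7 and 1205 CPM in Ex, against 3615 and 4488 CPM in Sed, with 7 of 16 markers at 0, and without the 4 cells at 73.7 and 40.7 CPM in Ex, against 121 and 573 CPM in Sed. Summed hepatocyte markers, 13 of 20 of them at 0 including Alb, were at 6.14 and 92.2 CPM in Ex, against 253 and 636 CPM in Sed, of which Hp made up 0 and 49.6 CPM in Ex, against 217 and 603 CPM in Sed. Without the 4 cells they were at 6.14 and 57 CPM in Ex, against 48.5 and 0 CPM in Sed. Lgals3, which had 135 and 199 CPM in Ex against 868 and 938 CPM in Sed, turned to a log2 change of 0.47 without the 4 cells. With 1 library left out, and the lone library of a group assumed to vary like the others, edgeR called 19 genes without Ex 1, 44 without Ex 2, 48 without Sed 1 and 48 without Sed 2, of which 10, 10, 7 and 11 were among the 12.

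None of the tested identity genes of Treg passed. Ctla4 had 1037 and 929 CPM in Ex, against 578 and 603 CPM in Sed (log2 0.74, SE 0.30, adjusted p = 0.376). Ikzf2 had 1215 and 1163 CPM in Ex, against 886 and 1072 CPM in Sed (log2 0.30, adjusted p = 0.797). Tnfrsf4 had 822 and 1163 CPM in Ex, against 434 and 1541 CPM in Sed (log2 0.11, adjusted p = 0.826). Of the 24 identity genes, 12 were tested and 0 passed in either direction (median log2 change 0.31). In 6 of the 12 both Ex values exceeded both Sed values, where 21.5% of all tested genes did so, and in 0 both were below. Without the cells rich in myeloid RNA, 2 of 12 were higher in this way (19.8% of all tested genes). On simulated data this comparison called 8 of 100 genes with a 2-fold change and 64 of 100 with a 4-fold change. The changed genes all had a mean above 100 CPM, so these rates do not cover lower genes. A gene that did not pass was therefore not shown to be unchanged.

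Suppression genes are described with values, since none of the 6 tested passed (median log2 change 1.20, and 0.38 over 7 genes without the 4 cells). The genes named in the rest of this comparison were picked after their values were seen. Lag3, an inhibitory receptor, had 23 and 20 UMIs in Ex, against 1 and 1 in Sed (141 and 142 CPM, against 18.1 and 33.5 CPM; adjusted p = 0.177), a ratio of 6.03 over the group sums with a 95% counting interval of 1.57 to 51.3 and of 4.22 (0.719 to 171) without Sed 1. Gzmb had 1271 and 645 CPM in Ex, against 452 and 67 CPM in Sed (log2 1.69, adjusted p = 0.261); without the 4 cells the values overlapped, at 1271 and 529 CPM in Ex and 582 and 95.5 CPM in Sed. Il10 was below the test's count filter, with 16 and 9 UMIs in Ex, against 1 and 0 in Sed. Over the group sums this was a ratio of 7.01 (95% counting interval 1.15 to 288), which rests on 1 UMI in Sed 1: without Sed 2 it was 4.55 (0.745 to 187), and without Sed 1 there was no UMI in Sed and no ratio. Il1rl1, the receptor for IL-33, a tissue alarm signal, had 2 and 19 UMIs in Ex, against 0 and 0 in Sed, from 7 cells in all. Since 19 of the 21 UMIs came from Ex 2, no fold is given: without Ex 2 the level in Ex was 12.3 CPM, under the 35.2 CPM that 3 UMIs over Sed would make. The counts come from few cells, 9 for Il10 and 16 for Lag3, and the Ex cells were the deeper ones. In Ex 1, 10 of the 16 Il10 UMIs came from 1 cell, and in Ex 2 a single cell held 8 of the 20 Lag3 UMIs. The counting intervals treat each UMI as a separate draw and leave out the spread between cells and libraries. They therefore do not show a difference between Ex and Sed.

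None of 5 tested genes of resting T cells passed between Ex and Sed (median log2 change -0.10, and -1.46 over 3 genes without the 4 cells). Il7r, the receptor for IL-7, a survival factor of resting T cells, had 55.2 and 284 CPM in Ex, against 669 and 536 CPM in Sed (log2 -1.88, SE 0.60, adjusted p = 0.229). Klf2, which drives the receptors for recirculation, had 141 and 369 CPM in Ex, against 723 and 569 CPM in Sed (log2 -1.38, adjusted p = 0.225). In both genes the Ex and Sed values did not overlap, with or without the 4 cells. Of the 5 tested genes, 2 were lower in Ex in this way, where 19.3% of all tested genes were. Ex 2 lay nearer to Sed than Ex 1 in both genes. Of 21 tested interferon-stimulated genes 0 passed (median -0.17). Of 13 tested genes of T cell receptor activation 0 passed (median -0.68). Dusp2, a phosphatase induced by that receptor, had 153 and 121 CPM in Ex, against 506 and 368 CPM in Sed (log2 -1.70, adjusted p = 0.072). The 16 tested MHC class I genes had a median of 0.03, the 14 homing genes 0.05, the 7 genes of the TNF family 0.33 and the 8 of the IL-2 pathway -0.30, with 0 calls in each. The 4 tested helper lineage genes had a median of 0.11, the 3 of TGF-beta signalling -0.40 and the 3 of the cell cycle -0.12, again with 0 calls. Dividing cells had been left out by the rule, so the cell cycle genes cannot show whether division differed between Ex and Sed. Of 20 tested effector and tissue genes 1, Lgals3, fell (median 0.25), and Lgals1 had 2093 and 1560 CPM in Ex, against 904 and 603 CPM in Sed (log2 1.24, adjusted p = 0.109).

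Glycolysis genes had higher values in Ex without passing the test, and early response genes had lower values, with 1 call. Of the 17 glycolysis genes 11 were tested, with 0 called and a median log2 change of 1.43, against 0.00 over all genes; in 10 of the 11 both Ex values exceeded both Sed values, where 21.5% of all tested genes did so. Without the 4 cells the median was 1.58 and 9 did so (19.8% of all tested genes). Ldha, which makes lactate, had 945 and 638 CPM in Ex, against 235 and 201 CPM in Sed (log2 1.84, SE 0.39, adjusted p = 0.0694). Tpi1 had 595 and 291 CPM in Ex, against 90.4 and 134 CPM in Sed (log2 2.05, adjusted p = 0.123). With a library left out, the adjusted p of Ldha was 0.139 without Ex 1, 0.000827 without Ex 2, 0.0208 without Sed 1 and 0.0229 without Sed 2, and that of Tpi1 was 0.807, 0.000728, 0.185 and 0.0154 in the same order. Ex 2 had the lower Ex value of both genes. The 4 libraries together gave no call, and the Treg of Ex also had a median of 4957.5 and 5857 UMIs, against 2535 and 1619 UMIs in Sed; its part in these levels was not tested.

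Of the 24 genes for early response and heat shock 22 were tested and 1, Fos, fell (61.4 and 163 CPM in Ex, against 633 and 1373 CPM in Sed; log2 -3.11, adjusted p = 0.0154). In 13 of the 22 both Ex values were below both Sed values, where 19.3% of all tested genes did so, and the median log2 change was -0.56. Hspa1b, a heat shock chaperone gene that shares near-identical sequence with Hspa1a, had 129 and 142 CPM in Ex, against 343 and 703 CPM in Sed (log2 -1.86, adjusted p = 0.0707). Dusp1, a phosphatase that ends stress signalling, had 282 and 390 CPM in Ex, against 922 and 737 CPM in Sed (adjusted p = 0.0974). Without the 4 cells the list's median was -0.83 and 12 were below in both (19.9% of all tested genes), and the Fos levels were 61.4 and 65.1 CPM in Ex and 267 and 477 CPM in Sed. Such genes are also known to respond to the dissociation of tissue. Fos lost its call without the 4 cells (adjusted p = 0.307).

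**Figure D5:**
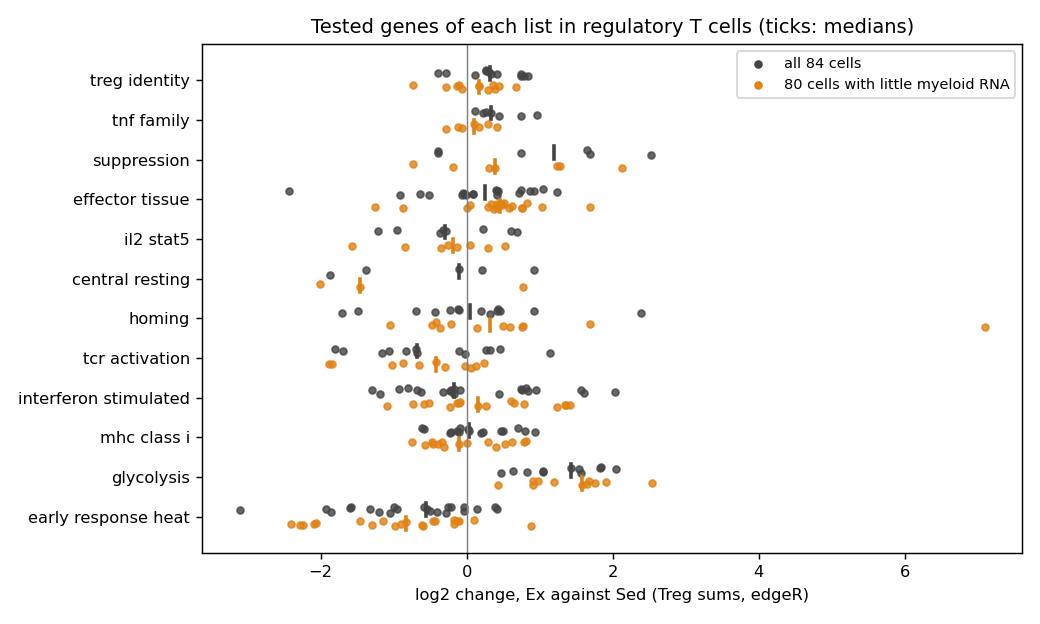
Log2 change between Ex and Sed Treg (horizontal axis) for each tested gene of 12 lists (rows), for all 84 Treg in grey and for the 80 with little myeloid RNA in orange, with ticks at the medians. Glycolysis genes lie to the right (median 1.43 and 1.58) and early response and heat shock genes to the left (-0.56 and -0.83); the orange point at 7.10 is Itgb1, which has 0 UMIs in Sed without the 4 cells, so that its fitted size is not a bound.

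The Ex effect in Treg was then set against the Ex effect in conventional CD4 T cells of the same libraries. Of 3033 genes tested with edgeR, 4 differed, all lower in Treg (0.132%): Chil3, Cxcl2, Lcn2 and Il1b, which are genes of myeloid cells. No gene was higher, 264 had an unadjusted p under 0.05, and DESeq2's Wald test called 4 higher and 9 lower. Without the cells rich in myeloid RNA in either class, edgeR called 0 of 2710 genes (0%), with 201 at an unadjusted p under 0.05. With a library left out the calls were 6 without Ex 1, 34 without Ex 2, 127 without Sed 1 and 142 without Sed 2.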

How the data were processed

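The authors deposited 1 matrix of counts, made with Cell Ranger per the submitters' processing notes (7.0.0, mm10 and GRCm38; the file header names 6.1.1), in which a value is the number of UMIs of a gene in a cell. Of its 51140 columns, the deposited barcode list names 28525, which were taken as the first columns in order; 22615 were not used. The number after a barcode gave the library through the deposited aggregation table. At the ends of the library blocks the expression changed within 6, 16 and 35 columns of the expected place. Whether the aggregation equalised depth is not given in the sources used here. The 3' kit counts 1 end of a transcript, so levels are not corrected for length.

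The sums over the cells of a class in each library were tested with edgeR 4.0.16 (R 4.3.3; quasi-likelihood, robust, filterByExpr, TMM, Benjamini-Hochberg threshold 0.05), with DESeq2 1.42.0, other filters, gates, thinning, removal of 293, 144, 422 and 462 cells by Scrublet score (scanpy 1.11.5) in Ex 1, Ex 2, Sed 1 and Sed 2, and left-out libraries as alternatives. Scripts were tested on simulated data. Kept cells held 31535530 and 22210100 UMIs in Ex, and 36539965 and 40010184 in Sed. Conventional CD4 T cells had Cd4 and Cd3 UMIs, no Foxp3, Cd8, Cd79a, C1qa, Klrb1c, Ncr1, Trdc or Tcrg-C1 UMI, and at most 1 of Mki67 and Top2a. Genes of the gates stayed in the fits and in the counts of calls, and are not read as results. A class was to be tested only with 30 cells in every library; this limit was lifted. Named genes were the largest called changes of at least 50 CPM that did not overlap, the markers, and called list members; a few genes, and 1 planned comparison defined by one of them, are not reported here. Members and gene lists were chosen with earlier results of these data known. Replicates of a group differed beyond sampling noise. Positions are from GENCODE, GRCm38.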

Additional observations from a re-analysis of the deposited data

Results flagged for a closer look

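For 4 genes the Ex effect in Treg differed from that in conventional CD4 T cells, by the interaction term of edgeR's quasi-likelihood test. Each difference below is the Ex effect in Treg minus that in conventional CD4 T cells, on the log2 scale. Chil3 differed by -12.56 (SE 1.03, adjusted p = 0.00133), with 0 and 0 UMIs in Ex Treg against 222 and 54 in Sed Treg, and 117 and 7 in Ex conventional CD4 T cells against 22 and 1 in Sed. Cxcl2, a neutrophil chemokine gene, differed by -7.68 (adjusted p = 0.00263), with 0 and 3 UMIs in Ex Treg against 24 and 1 in Sed Treg. Lcn2 differed by -7.46 (adjusted p = 0.01), with 1 and 0 UMIs in Ex Treg against 49 and 9 in Sed Treg. Il1b differed by -7.02 (adjusted p = 0.00263), with 0 and 2 UMIs in Ex Treg against 5 and 22 in Sed Treg. All 4 are myeloid genes; without the cells rich in myeloid RNA in both classes they fell below the count filter and no gene was called.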

How the results depend on the processing

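Shares and gene counts were recomputed under each alternative; the cause of a change was not tested unless the alternative itself left out cells or genes. The log2 ratio of the Treg share of kept cells (1.47) was 1.87 with a strict cell filter, 2.87 with at least 2 Foxp3 UMIs and 1.97 in thinned cells, and 1.30 to 1.67 with a library left out; of cells with a Cd3 UMI (0.94) it was 2.39 with 2 Foxp3 UMIs, 1.47 thinned, and 0.64 to 1.19; of Treg plus conventional CD4 T cells (-0.35) it was 0.74 with 2 Foxp3 UMIs, 0.15 thinned, and -0.65 to -0.09. Counting the dividing cells left it at 1.54 for kept cells. Conventional CD4 T cells needed a Cd4 UMI, which 35 of the 84 Treg lacked. In the matched gate a Treg too needed a Cd4 UMI, and no Klrb1c, Ncr1, Trdc or Tcrg-C1 UMI. The matched gate gave 1.43 for kept cells, 0.85 for cells with a Cd3 UMI and -0.43 for Treg plus conventional CD4 T cells. The replicate numbers only name libraries (correlation of deviations 0.13 over 1515 genes, 2 pairs); the replicate block gave 1.48, 0.93 and -0.36.

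Between Ex and Sed 12 genes were called: 65 with no count filter, 57 with doublets removed, 0 with at least 2 Foxp3 UMIs (29 at an unadjusted p under 0.05), 0 with the matched gate (58), 2 thinned, 0 without myeloid-rich cells (96), 19 to 48 with a library left out, and 9 with the replicate block, by edgeR. Lgals3 turned to 0.47 without myeloid-rich cells. Against conventional CD4 T cells 68 were called: 146 with no filter, 108 with 2 Foxp3 UMIs and 140 without myeloid-rich cells. The count was 54 with the matched gate (43 of them among the 68) and 81 thinned (31 among the 68). It was 29 with no replicate block (the block here is the library), and 13 to 86 with a library left out. S100a9 turned to 0.90 with doublets removed and 0.57 without myeloid-rich cells. For the difference of the Ex effects 4 were called: 13 by DESeq2's Wald test, 39 with no filter, 32 with doublets removed, 57 with 2 Foxp3 UMIs (none among the 4), 0 with the matched gate (131 at an unadjusted p under 0.05), 7 thinned, 0 without myeloid-rich cells (201), 5 with no replicate block (none among the 4), and 6 to 142 with a library left out; Cxcl2 and Il1b turned to 0.51 and 1.61 with 2 Foxp3 UMIs. Against CD8 T cells 553 were called: 309 by DESeq2, 279 thinned, 222 with no replicate block, and 277 to 641 with a library left out. Where 1 library remained in a group, it was assumed to vary like the other group. Removing cells with much myeloid RNA and counting dividing cells were added after seeing the data. Depth limits every Sed value, since its Treg sums held 55323 and 29855 UMIs.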

Other observations

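Genes were also seen together in single Treg. Of the 16 Treg with a Lag3 UMI, 15 also had Gzmb, which was in 41 of the 84. Of the 15 with Ifit1, an interferon-induced gene, 14 also had Isg15, which was in 41. Of the 7 with Il1rl1, 5 had Gata3 and 4 had Itgae, an integrin of tissue-resident T cells, which was in 11 of the 84. The median depth was 7153.5 UMIs with Lag3 and 3229.5 without, 5037 with Ifit1 and 3297 without, and 3508 with Il1rl1 and 3440 without. Deeper cells show more genes, so joint detection is a description and carries no test. Il1rl1, Klrg1 or Areg was seen in 23 Treg in all. These were 7 of 30 in Ex 1, 11 of 25 in Ex 2, 1 of 16 in Sed 1 and 4 of 13 in Sed 2. As a share of the Treg, Sed 2 lay above Ex 1, so the groups overlapped.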
